A study of Bos taurus with 252 samples.

Results

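BoLA and JSP.1 are 2 rows of a blood count table that list heavy chains of the class I major histocompatibility complex of cattle. The 2 rows stood among 33282 genes, and both passed the filter on low counts that left 19056 genes. They were chosen from these same libraries because their variance lay mostly between steers and little between days, and because they were on or off at day 0. Their levels, their shares of variance and their differences between groups or days are therefore a description, for which no test is given. The change from day 0 against NC is the comparison of the design that was fitted, and it is not independent of this choice either.

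The libraries came from 42 crossbred steers, 6 in each of 7 groups, each bled on day 0 and then after 3, 7, 14, 21 and lastly 56 days. An untreated group served as negative control (NC). The others were given 1 administration of the cephalosporin ceftiofur (CEFT), the fluoroquinolone enrofloxacin (ENRO), the phenicol florfenicol (FLOR), the tetracycline oxytetracycline (OXYT) or the macrolides tildipirosin (TILD) and tulathromycin (TULA), and the day 0 blood was drawn before it. All steers, NC included, had received tildipirosin, vaccines and an implant at an earlier facility, animals were allotted to treatments at random by weight, and each treatment had a single pen, so pen and treatment cannot be told apart. Ages were not given in the sources used here. The paper lists a breed identity for each sample, Bos taurus or Bos indicus, judged by eye. Breed was not used here, so breed and steer cannot be told apart in the values below. Whole blood was collected in PAXgene tubes, and the library totals lay between 26.1 and 74.1 M counts with a median of 43.6 M. Levels are CPM, counts scaled by TMM to a common library size and not per length, so they are compared between libraries and not between genes.

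Class I molecules sit on the surface of nearly all nucleated cells. A heavy chain pairs with beta 2 microglobulin and holds a short peptide from inside the cell, which CD8 T cells and natural killer cells read. In cattle the number of classical class I genes differs between haplotypes, and the genes are highly polymorphic and alike in sequence. Reads of 1 copy can therefore be placed on another copy or on none, and counts of single rows are uncertain for this reason. The symbols BoLA and BOLA name different rows here. In the RefSeq gene table of assembly ARS-UCD2.0, the symbol or synonyms place 4 rows of the counts in this family, namely BoLA, JSP.1, BOLA and BOLA-NC1. LOC512672, which was listed with the class I heavy chains but has no such symbol or synonym, had a median of 486 CPM over libraries. Sums and shares of the 4 rows leave it out and are not the whole of class I. Among the protein-coding genes of that table, JSP.1 lies between BOLA-NC1 and LOC132343676, and BOLA follows LOC132343676. The span of BoLA holds MIC1, MIC2, LOC507917, LOC788634 and MIR10167, so it overlaps other genes there. BoLA and BOLA-NC1 both carry the synonym BoLA-NC there, and which rows are classical genes was not tested.

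BoLA had counts in every library, from 4.83 to 1036 CPM with a median of 83.6 CPM. The level followed the animal. The 6-day medians of the steers ran from 5.36 CPM in Flor10 to 873 CPM in Tild3, a 163-fold range, while the highest day of a steer was a median of 2.38-fold above its lowest day. In 13 steers that fold stayed under 2, and in 1 steer it passed 10. Ceft8 was the steadiest, with 400 to 470 CPM over its 6 days. Oxyt5 moved most, from 467 CPM on day 0 to 31.9 CPM on day 56.

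JSP.1 ranged from no count to 5815 CPM. It had no count in 36 libraries and fell below the level of 3 counts, which was 0.0433 to 0.122 CPM depending on the library, in 39. The medians of the steers ran from 0 CPM in NC12 and Oxyt1 to 5007 CPM in Enro6. On day 0, 10 steers were under 1 CPM, 7 between 1 and 10, 9 between 10 and 100, and 16 over 100 CPM. The level was thus graded, with steers in each range, and the on and off groups were its ends. On all 6 days 10 steers stayed over 100 CPM and 3 stayed under 1 CPM.

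The steers at the top of JSP.1 were steady. Enro6 lay between 4284 and 5815 CPM, Tild7 between 2969 and 4750 CPM and Tild10 between 3302 and 4869 CPM, so that each stayed within 2-fold. Tild3 and Tula4 did so too. Oxyt1 had counts on day 0 alone, at 0.122 CPM. The fold from the lowest to the highest day had a median of 18.1, was over 10 in 26 steers and over 100 in 12. For the 17 steers with a library below 3 counts, the fold was taken against 3 counts in that library and is a lower bound.

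**Figure D1:**
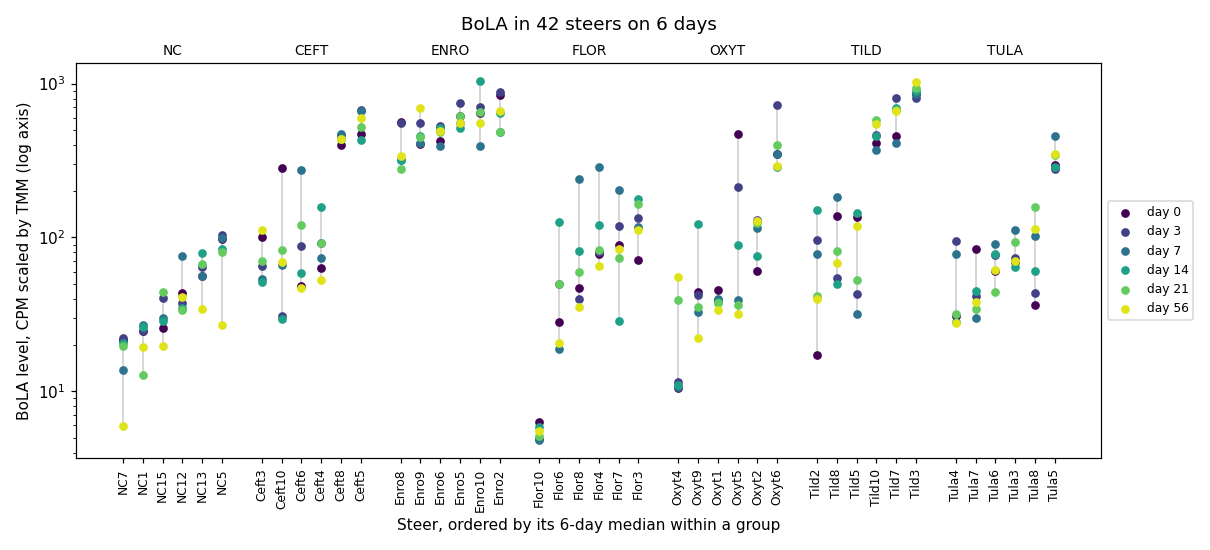
BoLA in CPM scaled by TMM on a log axis (vertical) for each of 42 steers (horizontal, by group, ordered by 6-day median), 1 point per library coloured by day, grey lines joining the lowest and the highest day. The points of a steer lie close together compared with the distance between steers, and all 36 ENRO libraries lie above all 36 NC libraries.

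**Figure D2:**
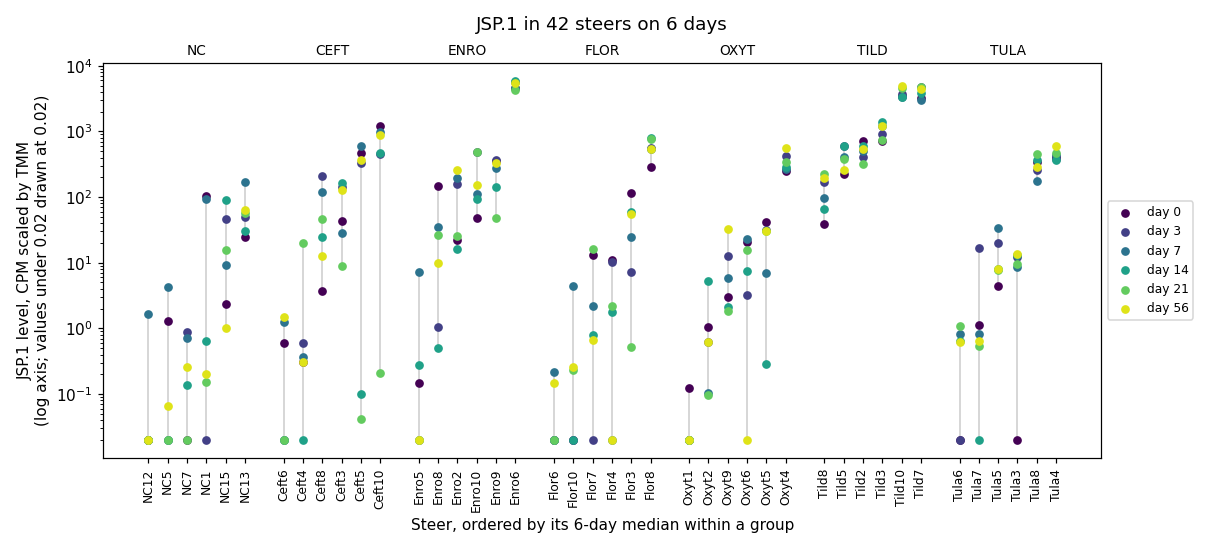
JSP.1 drawn in the same way, with values under 0.02 CPM placed at 0.02. Enro6, Tild7 and Tild10 stay near the top on all days, while Ceft10 and Ceft5 drop by several powers of 10 on 1 or 2 days.

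In 5 steers JSP.1 was under 1 CPM on some days and over 100 CPM on others (Ceft10, Ceft5, Enro8, Flor3 and NC1). In Ceft10 JSP.1 was 1228, 460, 987 and 476 CPM on days 0, 3, 7 and 14, then 0.212 CPM on day 21 and 879 CPM on day 56. In Ceft5 JSP.1 was 332 to 597 CPM on 4 days, but 0.102 CPM on day 14 and 0.0414 CPM on day 21. In NC1 JSP.1 was 104 CPM on day 0 and 92.9 CPM on day 7, with 0 to 0.634 CPM on the other 4 days. Of these 5 steers, 4 were under 1 CPM on day 21 and 3 on day 14.

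BoLA showed no drop of similar size in these libraries. Ceft5 had 431 and 523 CPM of BoLA on days 14 and 21, within or near its range of 471 to 674 CPM on the other days. In NC1 BoLA stayed between 12.7 and 27.04 CPM throughout and was lowest on day 21. In Enro8 BoLA was 319 CPM on day 14, when JSP.1 was under 1 CPM, with a range of 278 to 560 CPM over all days. In Flor3 BoLA was 164 CPM on day 21, when JSP.1 was under 1 CPM, with a range of 71.7 to 177 CPM. The 4 class I rows together gave 1125 CPM in Ceft5 on day 14 and 798 CPM on day 21, against 1116 to 2272 CPM on the other days. In Ceft10 the 4 rows together fell to 182 CPM on day 21 from 612 to 1653 CPM on the other days. BoLA itself was 82.8 CPM there on day 21. It was 284 CPM on day 0, 31.01 on day 3 and 66.4 on day 7. On days 14 and 56 it was 29.3 and 69.6 CPM. How reads were divided among the rows in these libraries was not tested.

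Whether a library with such a drop belonged to another animal was checked on other genes. Across the 200 genes with the largest share of variance between steers of a group, without the class I rows, every library correlated best with the other libraries of their own steer. These genes were picked on the same libraries, which favours such a match. The libraries of Ceft10 on day 21 and of Ceft5 on days 14 and 21 were among those that matched their own animal. BoLA and JSP.1 alone were weaker tags of an animal: the nearest other library belonged to the same steer for 32 libraries by BoLA, 25 by JSP.1, 77 by both and 106 by all 4 rows.

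The sum of squares of log2 CPM was divided into parts for group, steer within group, day, group by day and a residual. For BoLA the group took 46% and the steers within groups 42.8%, together 88.8% between steers, and day took 0.299%, group by day 1.41% and the residual 9.46%. For JSP.1 the shares were 31.8% and 50.5%, together 82.3% between steers, with 1.02% for day, 2.59% for group by day and 14.1% for the residual. The median gene of those tested had 38.6% between steers and 8.36% for day. There were 286 genes with a larger share between steers than BoLA and 615 with a larger one than JSP.1. The share taken by group was exceeded in 17 genes for BoLA and 66 for JSP.1. JSP.1 also had an SD of 5.23 log2 units over all libraries, which 4 genes exceeded.

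In the related rows less of the variance lay between groups. BOLA had 63.7% of its variance between steers, made up of 14.2% for group and 49.5% for steers within groups, with 31.3% residual, all as percent of the total. BOLA-NC1 had 80.97% between steers, made up of 2.64% for group and 78.3% for steers within groups, again as percent of the total. That share within groups was larger than that of BoLA or JSP.1. The 4 rows summed had 76.6% between steers and an SD of 1.14 log2 units. The sum ran from 143 to 9173 CPM over libraries, and its fold within a steer had a median of 2.35 and reached 9.07 in Ceft10. JSP.1 made up a median of 2.37% of the summed counts of a library, so in most steers its changes could hardly move the sum.

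**Figure D3:**
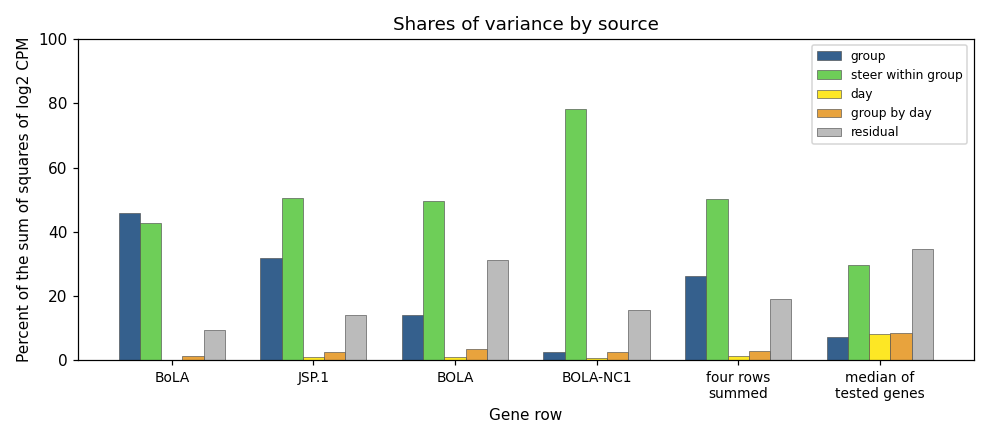
Percent of the sum of squares of log2 CPM (vertical) by source (bar colours) for the 4 class I rows, for their sum and for the median over tested genes, whose 5 medians need not add to 100%. Group and steer bars are tall and the day bar is close to 0 for BoLA and JSP.1.

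The order of the steers on day 0 was largely kept later, as a description over 42 steers whose days share an animal. Spearman's rho between day 0 and each later day was 0.76 to 0.81 for BoLA and 0.70 to 0.89 for JSP.1. It was 0.40 to 0.62 for BOLA and 0.60 to 0.80 for BOLA-NC1.

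BoLA separated ENRO from NC. On day 0, before administration, BoLA lay between 403 and 842 CPM with a median of 586 CPM in the 6 ENRO steers, and between 21.6 and 97.6 CPM with a median of 34.7 CPM in the 6 NC steers. On day 7 the ENRO range was 321 to 558 CPM and the NC range 13.8 to 99.7 CPM. On day 56 these ranges were 337 to 694 and 5.98 to 41.1 CPM. The lowest ENRO library of any day, 278 CPM, lay above the highest NC library of any day, 104 CPM, and both groups were sequenced on lane 1.

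The share of all tested genes whose ENRO and NC steers did not overlap was 0.184% on day 0, 2.18% on day 3 and 1.45% on day 7. It was 0.184% on day 14, 0.178% on day 21 and 0.262% on day 56. On each of the 6 days together it was 0.00525%, which is 1 gene, BoLA itself. Since BoLA was chosen with this pattern in view, the count describes it and supports nothing further.

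Ordered by the median over steers of their 6-day medians, BoLA was 34.4 CPM in NC, 51.5 in OXYT, 67.6 in FLOR, 70.4 in TULA, 77.8 in CEFT, 273 in TILD and 536 CPM in ENRO. The ranges of neighbours in this order overlapped in each case. In NC the steers reached from 20.3 to 90.6 CPM, in CEFT from 67.4 to 562 CPM and in TILD from 59.985 to 873 CPM. By these medians ENRO, from 329 to 654 CPM, lay clear of NC, FLOR and TULA and overlapped CEFT, OXYT and TILD. The highest TULA median, 320 CPM in Tula5, was close to it. By single libraries FLOR and TULA overlapped ENRO too. Tula5 reached 455 CPM and Flor4 286 CPM on day 7, and the lowest ENRO library, of Enro8 on day 21, had 278 CPM. On single days BoLA also separated CEFT from NC on day 56, when 0.199% of tested genes did so, and no other treatment from NC.

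The steers with high BoLA were spread unevenly over the groups. Over 100 CPM on all 6 days were 13 steers, namely 6 of ENRO, 3 of TILD, 2 of CEFT and 1 each of OXYT and TULA, and none of NC or FLOR. The mean log2 CPM of the steers showed a gap of 1.41 between 6.95 and 8.37 with 29 steers below and 13 above, against an SD of 0.67 within steers. Flor10 stood apart at the other end, with 4.83 to 6.29 CPM on its 6 days.

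The highest group median of JSP.1 was that of TILD. Its steer medians there ran from 132 to 4128 CPM with a median of 787 CPM, and in NC from 0 to 53.3 CPM with a median of 0.307 CPM. On day 0, before administration, JSP.1 lay between 39.6 and 3411 CPM in TILD and between 0 and 104 CPM in NC, so the groups overlapped. They did not overlap on days 3, 21 and 56, as for 2.5%, 1.27% and 0.63% of tested genes. The other groups had medians of 1.72 CPM in FLOR, 8.01 in OXYT, 9.43 in TULA, 61.1 in CEFT and 112 CPM in ENRO, with ranges that overlapped each other and NC. TILD was sequenced on lanes 2 and 3 and NC on lane 1, so lane and treatment cannot be told apart for that pair. Within TILD, JSP.1 was 391.99 to 4128 CPM in the 4 steers of lane 2 and 132 to 3582 CPM in the 2 steers of lane 3.

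Cell markers were checked in the same groups. PTPRC, found on all leukocytes, had steer medians of 899 to 1042 CPM in NC, 880 to 1089 CPM in ENRO and 765 to 960 CPM in TILD. The T cell markers summed to 1333 to 2223 CPM in NC and 1230 to 2337 CPM in ENRO, with 7 of 7 found, and the B cell markers to 1237 to 2435 and 1373 to 2435 CPM, with 6 of 6 found. The monocyte sums were 1060 to 2217 CPM in NC and 923 to 2648 CPM in ENRO, with 5 of 5 found. The neutrophil sums were 622 to 1499 and 590 to 1329 CPM, with 5 of 6 found. In TILD the T cell sums were 1429 to 2342 CPM, the B cell sums 1316 to 2753, the monocyte sums 1257 to 2718 and the neutrophil sums 883 to 1651 CPM, and the part of cell makeup in the levels of BoLA and JSP.1 was not tested. The hemoglobin share of a library ran from 0.00405% to 25.5%. In whole blood, fewer cells of a type and less RNA per cell cannot be told apart.

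The 4 class I rows gave different pictures in ENRO and NC, again as a description. BOLA had a median over steers of 76.6 CPM in ENRO and 278 CPM in NC, the opposite order to BoLA, with ranges of 30.9 to 1017 and 166 to 1081 CPM that overlapped. BOLA-NC1 was at 343 CPM in ENRO and 224 CPM in NC. The 4 rows summed were at 1027 CPM (846 to 7419) in ENRO and 637 CPM (298 to 1226) in NC. ENRO and NC thus overlapped in the sum of these 4 rows, which leaves out LOC512672, although BoLA alone kept them apart. Of the summed counts BoLA made up a median of 48.7% in ENRO (6.64 to 81.8%) and 5.50% in NC (2.93 to 17.2%). JSP.1 made up a median of 53.995% in TILD (13.9 to 61.9%).

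**Figure D4:**
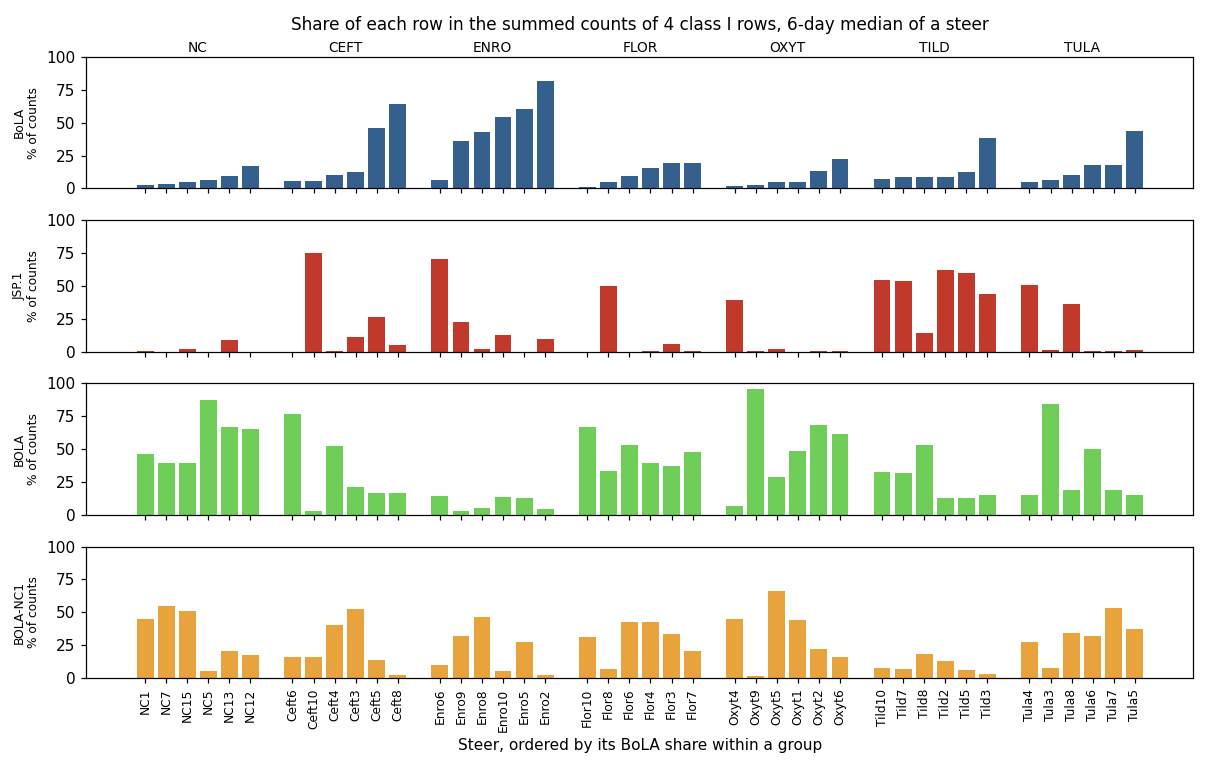
Percent of the summed counts of BoLA, JSP.1, BOLA and BOLA-NC1 that fell on each row (vertical, 1 panel per row), as the median over 6 days of each steer (horizontal, by group). BoLA has its highest group median in ENRO, with Enro6 low, and JSP.1 in TILD, with Tild8 low, while the group medians of BOLA are 55.7% in NC, 54.7% in OXYT and 43.4% in FLOR.

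Over all libraries, the largest of the 4 rows was BOLA in 95, BOLA-NC1 in 60, JSP.1 in 56 and BoLA in 41 libraries. The same row was the largest on all 6 days in 15 steers, on 5 days in 8 and on 4 or fewer in 19. These are shares of the counts of the 4 rows, without LOC512672, and not corrected for the length of the rows.

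The changes from day 0 within steers were set against those of NC. For each treatment and each later day, the change from day 0 was compared with the change in NC by edgeR's quasi-likelihood test with steer as block, 30 contrasts for each gene. No contrast passed an FDR of 0.1 for BoLA, with a smallest FDR of 0.568, or for JSP.1, with 0.277. At an unadjusted p under 0.05 there were 0 contrasts for BoLA and 5 for JSP.1, and with DESeq2, which also made no call, 5 and 2. The genes had been chosen for little variance over days, so few calls were likely, and the lack of calls is no evidence that the genes did not change. The share of all tested genes called was 0% in 11 contrasts. It was 3.29% on day 3 and 0.924% on day 14 in CEFT. In ENRO it was 0.0787%, 11.3%, 0.105% and 0.0262% on days 3, 7, 14 and 21, and in FLOR 0.0315%, 0.0157% and 0.121% on days 3, 7 and 14. In OXYT it was 0.021% on day 7 and 2.59% on day 56. In TILD it was 0.00525%, 0.0157%, 0.0892% and 3.64% on days 3, 7, 14 and 21, and in TULA 0.00525%, 0.0157%, 0.178% and 0.00525% on days 3, 7, 14 and 56. All 30 contrasts share the 6 NC steers.

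The precision differed between the 2 genes. For BoLA the fitted log2 changes against NC lay between -0.92 and 1.09 with standard errors of 0.55 to 0.58. The largest was in FLOR on day 7, at 1.09 with a standard error of 0.56. There, BoLA was above day 0 in 4 of 6 FLOR steers with a median change of 0.94, and in 5 of 6 NC steers with a median change of 0.09.

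For JSP.1 the standard errors were 1.40 to 2.06 log2 units. The largest fitted change was in TULA on day 56, at 4.002 with a standard error of 1.79. JSP.1 was above day 0 in 4 of 6 TULA steers, with a median change of 0.68, and in 2 of 6 NC steers, with a median change of -0.59. The fitted change of JSP.1 was positive in 24 of 30 contrasts with edgeR and in 14 with DESeq2, and in 13 of 30 its sign differed from that of the medians over steers. No direction is given for JSP.1 for this reason. For BoLA the signs differed in 6 of 30.

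Without regard to treatment, the median log2 change of BoLA from day 0 was 0.14 on day 3, with 28 of 42 steers higher, and -0.17 on day 56, with 16 higher. For JSP.1 it was 0.04 on day 3, with 21 of 42 steers higher, and 0.22 on day 56, with 22 higher. In single steers the change of JSP.1 on day 21 reached -12.42 and 7.70.

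The relation between BoLA and JSP.1 was fitted across steers. Since the steers were split at the gap in BoLA, no pooled correlation was tested. Over all 42 steers Spearman's rho was 0.35, given as a description. Over the 13 steers above the gap, Pearson's r between the 6-day means was 0.29 (two-sided permutation p = 0.329) and Spearman's rho 0.39 (permutation p = 0.187). Over the 29 steers below it, r was 0.20 (permutation p = 0.297) and rho 0.12 (permutation p = 0.521). The adjusted p over these 4 values was 0.439 to 0.521, and r was 0.10 and -0.01 once the 2 steers with BoLA farthest from its median were left out. The split at the gap narrowed the range of BoLA within each cluster, and a relation over the whole range was not tested. Enro6 and Enro5 are an example, with steer medians of 488 and 585 CPM of BoLA but 5007 and 0.0824 CPM of JSP.1.

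**Figure D5:**
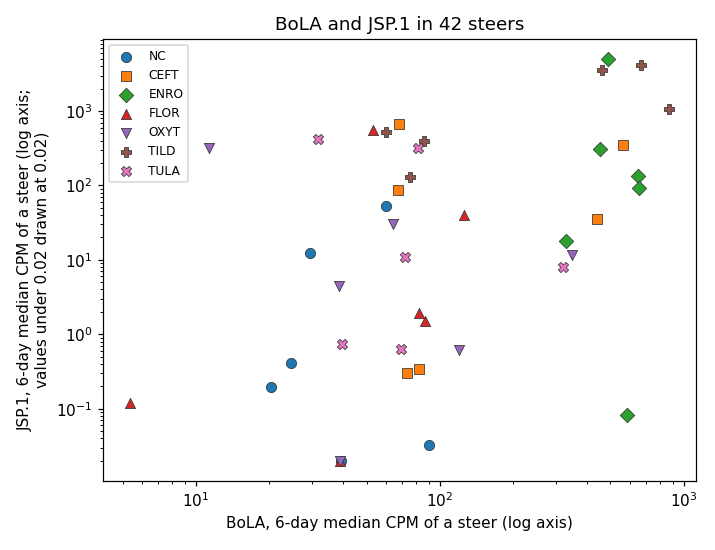
JSP.1 against BoLA, each as the 6-day median CPM of a steer on log axes, 1 point per steer with the marker shape and colour giving the group, and JSP.1 values under 0.02 CPM drawn at 0.02. ENRO steers share a narrow range of BoLA from 329 to 654 CPM and spread over the range of JSP.1.

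Within a steer, the course of BoLA over the 6 days was set beside that of genes that serve or regulate class I. With NLRC5, the transactivator of class I genes, the median correlation over 42 steers was 0.28 and it was positive in 27. With B2M, the light chain, it was 0.13 and positive in 23, and with TAP1, a subunit of the peptide transporter, -0.0015 and positive in 21. For JSP.1 the medians were 0.12 with NLRC5, -0.04 with B2M and 0.09 with TAP1. Each value rests on 6 libraries of 1 animal, which share depth, so these are descriptions. BoLA and JSP.1 had a median of 0.04 with each other.

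Other genes of the class I pathway were tested for an effect of day, with steer as block (edgeR, quasi-likelihood F test on 5 coefficients), where 84.4% of all tested genes passed an FDR of 0.1, 44% higher and 40.4% lower than day 0. The direction and the size are those of the mean log2 change over the 5 later days. Of 17 other class I and class I-like heavy chains tested, 5 rose, 7 fell and 5 did not pass, with a median change of 0.04. LOC512672, listed with the class I heavy chains, fell by 0.50 on the log2 scale (edgeR, FDR 2.77e-25), and MR1, which presents vitamin metabolites, fell by 0.38. BOLA and BOLA-NC1 did not pass, with FDR 0.310 and 0.391 in edgeR.

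Of the 11 genes of peptide supply and loading, 2 rose, 6 fell and 3 did not pass, and the median change was -0.09. The 3 were B2M, with FDR 0.117, TAP1, with 0.701, and TAP2, with 0.576, in edgeR. ERAP2, a peptide trimming enzyme, fell by 0.48 and TAPBPL, a peptide editor, rose by 0.34. All 5 immunoproteasome genes rose, by 0.14 for PSME2 to 0.31 for PSMB10. Of 13 regulators of class I transcription, 2 rose and 11 fell, among them NLRC5 with a mean change of -0.05. Of 13 receptors for class I, 2 rose and 6 fell, and KLRD1, a natural killer receptor chain, fell by 0.82. Of 14 class II genes 9 rose and 1 fell, and CIITA, their transactivator, rose by 0.32.

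In these lists, each treatment was also set against NC within a day. Of 2628 tests over 36 comparisons of 6 and 6 steers, 11 or 0.419% passed an FDR of 0.1 in edgeR, in 9 genes, against 0.51% over all genes tested in the same comparisons. These are levels against NC on the same day, not changes from day 0. FCGRT, the neonatal Fc receptor, was higher than in NC on day 3 in OXYT, at 139 ± 20.4 against 72.5 ± 14.5 CPM (SD, n = 6, edgeR FDR 0.0397). It was higher in CEFT too, at 106 ± 17.4 CPM (edgeR FDR 0.0747). CD74, the invariant chain, was higher than in NC on day 3 in FLOR and in CEFT, in CEFT at 7731 ± 2379 against 4600 ± 490 CPM (SD, n = 6, edgeR FDR 0.0620). ERAP1 was lower than in NC in TILD on day 14, at 37.9 ± 6.36 against 66.5 ± 11.8 CPM (SD, n = 6, edgeR FDR 0.0747). For single comparisons the share of all genes was 8.34% for CEFT, 2.07% for OXYT and 2.1% for FLOR on day 3 and 0.194% for TILD on day 14. These groups were on other lanes than NC or, for FLOR, partly so, and after adjustment of the counts by lane with ComBat_seq edgeR made 0 calls, with 145 tests at an unadjusted p under 0.05 against 260 without it. DESeq2 made 88 calls without the adjustment.

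Among 13801 genes with a mean of at least 1 CPM, the steer means most like those of BoLA over 42 steers, by Spearman's rho, were LOC112443208 with 0.61, LOC101908205 with -0.55, CCDC138 with -0.55, LOC112447328 with -0.53 and LOC112442053 with -0.51. For JSP.1 these were CLPB with -0.58, LOC614695 with 0.58, DMBT1 with 0.58, DBR1 with -0.57 and LOC513580 with 0.56. Of the genes named for BoLA only CCDC138 was found in the RefSeq table, and it lay on another chromosome than the class I rows. The place of the others named for BoLA is thus not known here. All those named for JSP.1 were found and lay on other chromosomes. These correlations are the extremes of many comparisons and describe these steers.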

How the data were processed

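Stranded mRNA libraries of whole blood from 42 steers on 6 days were used, and none was left out. The counts deposited by the authors came from reads aligned to ARS-UCD1.3 with HISAT2 2.1.1, per the submitters' processing notes (the paper names another version), assembled with StringTie 2.2.0 and turned from transcript coverage into counts for a read length of 150, so they are whole-number estimates of reads with no normalization and no lane adjustment. The annotation release was not given in the sources used here. Reads of near-identical class I copies can be divided among rows or lost in these steps, which bears on BoLA and JSP.1 throughout. No genome of this build and no sequences were used here, and the RefSeq table of ARS-UCD2.0 served for names and neighbours only.

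Groups, days and steers were taken from the sample titles, and lanes from the names of the count columns. NC and ENRO were on lane 1, TULA on lane 2, CEFT and OXYT on lane 3, FLOR on lanes 1 and 2 and TILD on lanes 2 and 3. A gene was kept for testing if 12 or more libraries exceeded 0.2 CPM. The tools were edgeR 4.0.16 under R 4.3.3 (TMM, quasi-likelihood test, Benjamini-Hochberg FDR of 0.1 over all genes tested), DESeq2 1.42.0 and, for ComBat_seq by lane, sva 3.50.0. The change from day 0 was fitted to all libraries with steer as block and treatment by day terms. Comparisons within a day used 6 and 6 libraries. Log2 CPM used a prior count of 2. Permutation tests used 100000 permutations. The fit was tested on simulated counts with known changes, whose spread between steers was smaller than that of BoLA or JSP.1. How it performs at the spread of these genes was not tested. Same-named steers are the same animal in the labels, and after subtraction of the mean of each group and day the libraries of a steer correlated with a median r of 0.34, above 0.1 for 42 of 42 steers. No 2 libraries held identical values.

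The genes and the pathway and marker lists were chosen with earlier results of these data known. The genes named are BoLA, JSP.1, the other rows listed as class I heavy chains, B2M, TAP1, NLRC5 and up to 3 genes of a list with the largest change among those past the test, and the 5 genes most like each row over steers. TAP2, TAPBPL, MR1, PSME2, KLRD1 and FCGRT were named for their role or after their values were seen. Alternatives were library totals without a factor, DESeq2 size factors, totals without hemoglobin, ComBat_seq by lane, a prior count of 0.5, no filter, DESeq2, no block and day 0 left out or alone.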

Additional observations from a re-analysis of the deposited data

Results flagged for a closer look

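In each of the 7 groups, the steer with the highest and the one with the lowest mean log2 CPM over 6 days was compared with its nearest neighbour for BoLA and for JSP.1. Of 14 sets of 6 steers, 2 had a steer whose gap to its neighbour was too large a part of the range by Dixon's criterion, and chance flags about 1 in 20 such sets. Flor10 was low in BoLA, at a mean of 2.45 log2 CPM, with 4.83 to 6.29 CPM over its 6 days. The other FLOR steers had medians of 38.9 to 125 CPM. Tula5 was high in BoLA, at a mean of 8.37 log2 CPM and a median of 320 CPM, while the other TULA steers had medians of 31.5 to 81.1 CPM. Flor10 passed narrowly, with a gap of 0.628 of the range. The genes were chosen on levels of these steers, so these are descriptions. In JSP.1 no steer was flagged in this way.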

How the results depend on the processing

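The share of variance between steers was 88.0 to 90.2% for BoLA and 80.2 to 83.5% for JSP.1 under library totals without a factor, DESeq2 size factors, totals without hemoglobin, ComBat_seq by lane, a prior count of 0.5 and day 0 left out. The numbers of steers over 100 CPM on all 6 days stayed at 13 and 10. The 5 steers with JSP.1 both under 1 and over 100 CPM became 3 after ComBat_seq by lane, and the cause was not tested. No setting gave BoLA or JSP.1 a call for the change from day 0. The genes were chosen for little variance over days, so a lack of calls was likely under each setting. With DESeq2 the smallest FDR was 0.202 for BoLA and 0.114 for JSP.1. With no replicate block there were 0 calls too, and 0 contrasts at an unadjusted p under 0.05 for either gene. The steer block left 56 list genes past the test for day, and without it 46 passed, with 2 class I heavy chains higher and 5 lower, 0 and 6 receptors and 8 and 0 class II genes. The 11 calls of list genes against NC became 3 without the filter on low counts, 88 with DESeq2 and 0 after ComBat_seq by lane, and the causes were not tested. Pearson's r between BoLA and JSP.1 above the gap was -0.019 on day 0 alone (permutation p = 0.95). Depth limits JSP.1 below 3 counts, which cover counting error only, and the 6 steers of a group limit the precision of group values.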
